A study of Mus musculus with 4 samples.

Results

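The genes described here build the immunoproteasome and load peptides onto MHC class I molecules. They are the immunoproteasome subunits Psmb8, Psmb9 and Psmb10, the proteasome activator genes Psme1 and Psme2, the peptide transporter genes Tap1 and Tap2, the loading factor gene Tapbp, the trimming peptidase gene Erap1 and the regulator gene Nlrc5. They were chosen by name for these roles, with earlier results of these data known. All 10 were found among the 34721 entries of the expression table. Of the 10 genes, 9 reached 1 FPKM in at least 1 line, and 14165 genes of the table did so. FPKM are fragment numbers scaled for transcript length and library size. Psmb9, Tap1 and Tap2 reached 1 FPKM only in AOC11 and AOC11-LN, so their place among the 9 already depends on a higher level there. For this reason counts and medians below are over all 10 genes.

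RNA was sequenced from cultured cells of 4 mouse oral cancer lines, and each line has 1 library. AOC3 and AOC3-LN came from the primary oral tumor and the lymph node metastasis of mouse 3, and AOC11 and AOC11-LN from the same sites of mouse 11. The mice were male C57BL/6 animals whose buccal mucosa was treated with the carcinogen DMBA until a tumor grew, and the labels give no treatment of the cultures. Each line was passed under the skin of a mouse of the same strain and separated from fibroblasts with a kit before it was established, so a line is a selected culture and stands for 1 tumor of 1 animal. The low FPKM values, which fell near whole multiples of a step, placed the libraries at about 33600000 fragments for AOC3 and 28200000 for AOC3-LN, and at 33400000 for AOC11 and 32400000 for AOC11-LN.

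As background, proteasomes cut cellular proteins into peptides, and in the immunoproteasome the catalytic subunits encoded by Psmb5, Psmb6 and Psmb7 are replaced by those encoded by Psmb8, Psmb9 and Psmb10. The transporter made of the Tap1 and Tap2 products moves peptides into the endoplasmic reticulum, where tapasin, the Tapbp product, holds class I molecules at the transporter and Erap1 trims the peptides. Interferon gamma is known to induce most of these genes, and lower levels of them are a known feature of many carcinomas.

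The immunoproteasome subunit genes were lowest in AOC3-LN and highest in AOC11-LN. Psmb8, whose product has chymotrypsin-like activity, stood at 1.84 FPKM in AOC3 and 0.0516 in AOC3-LN, against 9.07 in AOC11 and 24.7 in AOC11-LN. Psmb9, whose product replaces the caspase-like subunit, had 0.913 and 0.132 FPKM in AOC3 and AOC3-LN, and 3.44 and 10.1 FPKM in AOC11 and AOC11-LN. Both genes were higher in each AOC11 line than in either AOC3 line, as were 30.5% of all genes that passed 1 FPKM. Psmb10, which encodes the immunoproteasome subunit with trypsin-like activity, stood at 34.4 FPKM in AOC3 and 22.3 in AOC3-LN, against 46.2 in AOC11 and 71.4 in AOC11-LN. The order of the lines was the same as for Psmb8 and Psmb9, but the highest value was only 3.2 times the lowest. Among the 14165 genes that passed 1 FPKM, Psmb8 stood at percentile 17.7 and 2.6 in AOC3 and AOC3-LN, and 45.9 and 70.3 in AOC11 and AOC11-LN. Psmb10 stood between percentile 69.3 in AOC3-LN and 89.0 in AOC11-LN, so it was well expressed in every line. The Psmb8 value of AOC3-LN rests on about 2.55 fragments, an estimate that assigns them all to the longest transcript, and 3 fragments have an exact Poisson 95% interval that corresponds to 0.0106 to 0.151 FPKM. This interval covers counting error only.

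**Figure D1:**
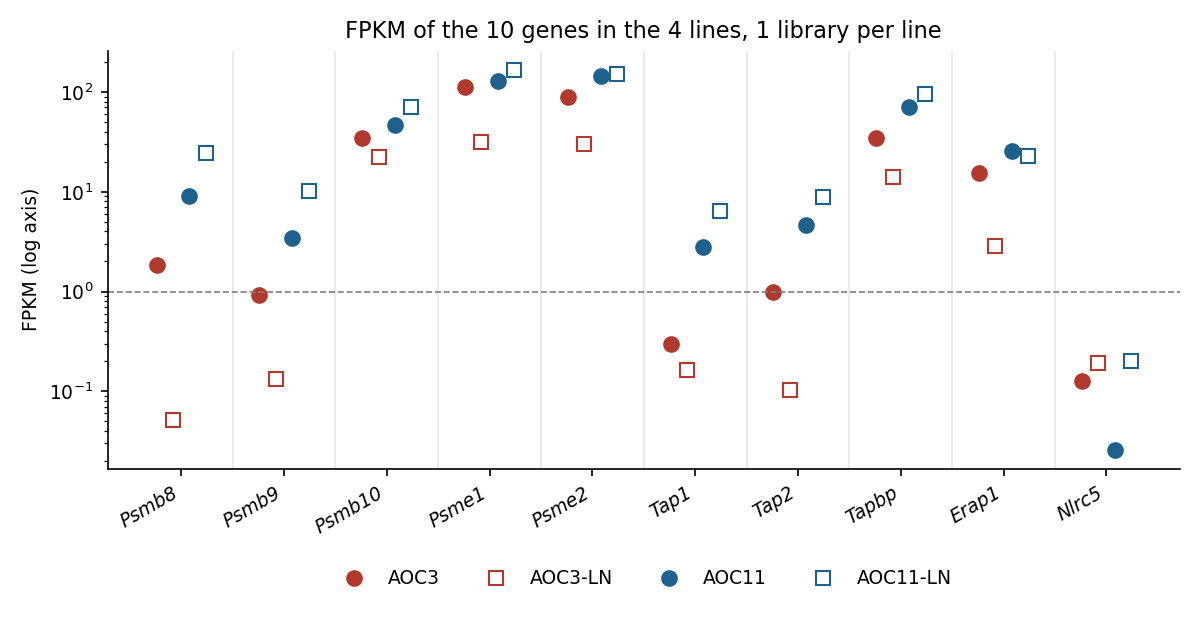
FPKM of the 10 genes (horizontal axis) in each of the 4 lines on a log axis (vertical axis), with red for the AOC3 lines, blue for the AOC11 lines, filled circles for primary tumor lines, open squares for lymph node lines and a dashed line at 1 FPKM. Each point is 1 library, and the open red square of AOC3-LN is the lowest point for 9 genes, with Nlrc5 as the exception.

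The constitutive catalytic subunit genes did not share this pattern. Psmb5, the counterpart of Psmb8, stood at 151 FPKM in AOC3 and 147 in AOC3-LN, against 175 in AOC11 and 135 in AOC11-LN. Psmb6, the counterpart of Psmb9, had 318, 329, 276 and 357 FPKM in the same order of lines. Psmb7, the counterpart of Psmb10, had 196, 210, 218 and 245 FPKM. None of these 3 genes differed by more than 1 log2 unit in any of the comparisons made between lines or pairs of lines.

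FPKM are scaled to length, so the level of each immunoproteasome subunit can be set against that of its counterpart within a library. Relative to Psmb5, Psmb8 stood at 1.22% in AOC3 and 0.0351% in AOC3-LN, and at 5.18% in AOC11 and 18.3% in AOC11-LN, with a counting interval of 0.00723% to 0.102% for AOC3-LN. Psmb9 stood at 0.287% of Psmb6 in AOC3 and 0.0401% in AOC3-LN, against 1.25% in AOC11 and 2.82% in AOC11-LN. Relative to Psmb7, Psmb10 stood at 17.6% in AOC3 and 10.6% in AOC3-LN, and at 21.2% in AOC11 and 29.1% in AOC11-LN. In every line the constitutive gene had the higher level of each pair, and the nearest approach was that of Psmb10 to Psmb7 in AOC11-LN.

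On the log2 scale the mean ratio of the AOC3 lines minus that of the AOC11 lines was -5.56 for Psmb8 to Psmb5, -4.13 for Psmb9 to Psmb6 and -0.86 for Psmb10 to Psmb7. With a pseudocount of 1 FPKM and quantile normalization, these differences were -3.18, -2.34 and -0.77. The direction was the same, and the size for Psmb8 and Psmb9 depended on how values near 0 were treated. In an alternative chosen after seeing the data, leaving out AOC3-LN gave -2.99 for Psmb8, -2.71 for Psmb9 and -0.5 for Psmb10. From AOC3 to AOC3-LN the log2 ratio of Psmb8 to Psmb5 moved by -5.12, but by only -1.33 with the pseudocount of 1 FPKM and normalization, and from AOC11 to AOC11-LN it moved by 1.82. For Psmb9 to Psmb6 the same differences were -2.84, or -0.76 with the pseudocount and normalization, and 1.17, and for Psmb10 to Psmb7 they were -0.73 and 0.46. The ratio was thus lower in the lymph node line of mouse 3 and higher in that of mouse 11 for all 3 pairs, with 1 library per line and no test.

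**Figure D2:**
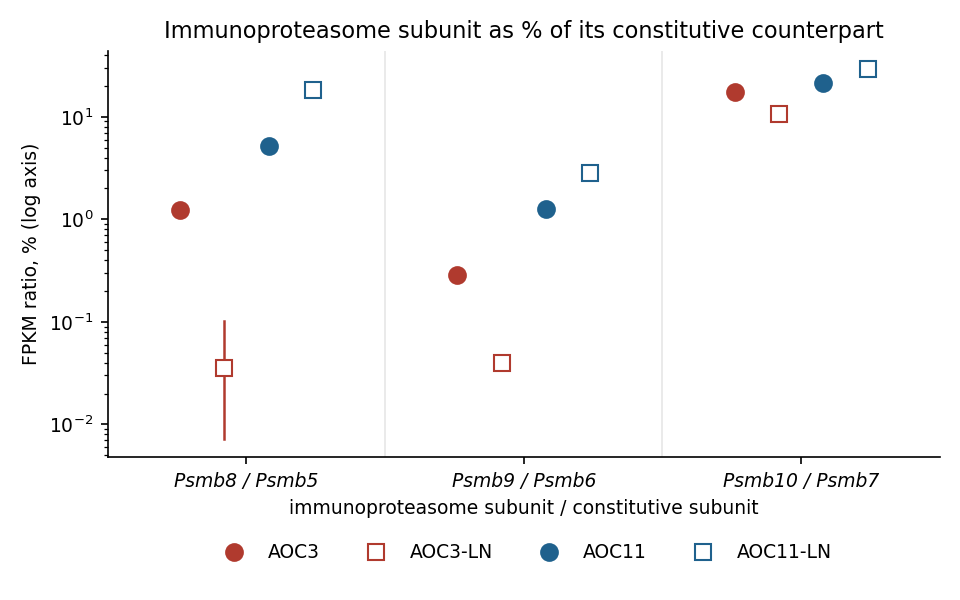
FPKM of each immunoproteasome subunit gene as a percent of its constitutive counterpart (vertical axis, log scale) for the 3 pairs (horizontal axis) in the 4 lines. Each point is 1 library, the vertical line at Psmb8 in AOC3-LN is the 95% counting interval of its estimated 3 fragments, and AOC11-LN is highest and AOC3-LN lowest in each pair.

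Most other genes of the proteasome differed less between the lines. Of the 11 other subunit genes of the 20S core, 1 was lower in the AOC3 lines by more than 1 log2 unit, against 6.00% of all genes, and the median difference was -0.06. That gene was Psmb4, a noncatalytic subunit gene with 164 FPKM in AOC3 and 151 in AOC3-LN, against 308 in AOC11 and 348 in AOC11-LN. It was also the only gene of the 11 to pass between the lymph node lines, with -1.18, against 8.69% of all genes. In both comparisons a single gene of the 11 is near the share of all genes. None of the 18 genes of the 19S regulator, which recognizes and unfolds ubiquitinated proteins, passed 1 log2 unit between the mice, and their median was -0.05. None of the 8 genes of other activators and assembly factors did, with a median of 0.3. Among these, Pomp, which encodes the maturation factor of the proteasome, had 117, 134, 178 and 187 FPKM in AOC3, AOC3-LN, AOC11 and AOC11-LN. Psmb11, the catalytic subunit gene of the thymoproteasome, stayed at or below 0.0121 FPKM in every line.

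The genes of the PA28 activator were expressed at a high level in all lines and were lowest in AOC3-LN. Psme1, which encodes the alpha subunit, had 113 and 31.3 FPKM in AOC3 and AOC3-LN, and 129 and 167 FPKM in AOC11 and AOC11-LN. Psme2, which encodes the beta subunit, stood at 88.8 FPKM in AOC3 and 30.4 in AOC3-LN, against 144 in AOC11 and 152 in AOC11-LN. AOC3 was close to the AOC11 lines for Psme1, and AOC3-LN stood apart from the other lines for both genes. The FPKM ratio of Psme1 to Psme2, whose products form a ring together, stayed between 0.899 in AOC11 and 1.27 in AOC3. Psme3, the gene of the related PA28 gamma subunit, had 119 and 146 FPKM in AOC3 and AOC3-LN, and 113 and 75.6 FPKM in AOC11 and AOC11-LN, so AOC3-LN was highest and AOC11-LN lowest.

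The peptide transporter genes stayed below 1 FPKM in the AOC3 lines. Tap1 stood at 0.296 FPKM in AOC3 and 0.164 in AOC3-LN, against 2.78 in AOC11 and 6.38 in AOC11-LN. Tap2 had 0.984 and 0.103 FPKM in AOC3 and AOC3-LN, and 4.62 and 8.87 FPKM in AOC11 and AOC11-LN. The products of both genes are needed for a working transporter, and in AOC3-LN both genes lay below 0.2 FPKM, at about 17.4 fragments for Tap1 and 9.53 for Tap2. Tap1 was below Tap2 in AOC3, AOC11 and AOC11-LN, with FPKM ratios of 0.301, 0.602 and 0.719. The ratio of 1.59 in AOC3-LN rests on these few fragments.

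Tapbp and Erap1 were expressed in all lines, at a lower level in the AOC3 lines. Tapbp stood at 34.6 FPKM in AOC3 and 14.1 in AOC3-LN, against 70.7 in AOC11 and 94.9 in AOC11-LN. Erap1 had 15.3 and 2.83 FPKM in AOC3 and AOC3-LN, and 25.5 and 23 FPKM in AOC11 and AOC11-LN. For both genes the AOC3 lines lay below the AOC11 lines without overlap, as they did for 30.5% of all genes that passed 1 FPKM. Erap1 was the only gene of the 10 that was highest in AOC11. Among 7 other genes of the loading complex and of chaperones of the endoplasmic reticulum, 1 was lower in the AOC3 lines by more than 1 log2 unit. Of all genes 6.00% were, and the median of the 7 was -0.18. That gene was Tapbpl, which encodes the tapasin-related peptide editor, with 4.98 FPKM in AOC3 and 2.11 in AOC3-LN, against 16.1 in AOC11 and 19.6 in AOC11-LN. Its log2 difference was -2.03 over both lines of each mouse, -1.48 between the primary tumor lines and -2.59 between the lymph node lines. In the last 2 comparisons it was also the only gene of the 7 to pass, against 5.69% and 8.69% of all genes. Calr, a chaperone gene of the loading complex, was nearly level and had between 441 FPKM in AOC11-LN and 484 in AOC11. None of 7 other peptidase genes of antigen processing passed 1 log2 unit in this comparison, with a median of 0.04. Lnpep, which encodes a relative of Erap1 in endosomes, had 7.76, 7.46, 8.13 and 4.56 FPKM in AOC3, AOC3-LN, AOC11 and AOC11-LN.

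Nlrc5, a transactivator of class I genes, did not follow the other 9 genes. It had 0.126 and 0.193 FPKM in AOC3 and AOC3-LN, and 0.0259 and 0.203 FPKM in AOC11 and AOC11-LN. These values correspond to between about 6.42 fragments in AOC11 and 48.7 in AOC11-LN over a long transcript. The gene was near the lower limit in all lines, its AOC3 and AOC11 lines overlapped, and its log2 difference between them was 0.1.

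Of 17 genes of interferon signaling and of partners of NLRC5, 3 were lower in the AOC3 lines by more than 1 log2 unit, against 6.00% of all genes, and the median was -0.36. The first was Rfx5, a promoter-binding partner, with 3.95 FPKM in AOC3 and 2.12 in AOC3-LN, against 8.22 in AOC11 and 14.1 in AOC11-LN. The second was Ifngr2, a chain of the interferon gamma receptor, with 7.27, 3.06, 17.4 and 11.7 FPKM in the same order of lines. The third was Irf9, the DNA-binding part of the complex activated by type I interferon, with 2.23, 1.25, 3.9 and 6.56 FPKM. Irf1, a transcription factor known to act on the Psmb9 and Tap1 promoter, did not pass and had 68.1, 21.1, 66.9 and 96.5 FPKM. AOC3 and AOC11 were nearly level for Irf1. From AOC3 to AOC3-LN it differed by -1.65 log2 units and was the only gene of the 17 to pass, against 3.42% of all genes. Between the primary tumor lines only Ifngr2 did, with -1.12, against 5.69% of all genes, so a single gene is near the share of all genes. Between the lymph node lines 6 of the 17 genes were lower in AOC3-LN by more than 1 log2 unit, against 8.69% of all genes.

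The interferon genes themselves were at or near 0. Ifng was listed at 0 in all 4 lines. Ifnb1 was listed at 0 in AOC3, AOC3-LN and AOC11 and had 0.0522 FPKM in AOC11-LN. Ifne was listed at 0 except in AOC11-LN with 0.122 FPKM, and Ifnk except in AOC3 with 0.0924 FPKM. Ifna1, Ifna2, Ifna4, Ifnl2 and Ifnl3 were not analysed here. Of the ubiquitin-like tags linked to interferon, Isg15 stood at 4.4 FPKM in AOC3 and 0.411 in AOC3-LN, against 4.87 in AOC11 and 14.5 in AOC11-LN, with a log2 difference of -1.74 between the AOC3 and the AOC11 lines. Its difference was -1.86 from AOC3 to AOC3-LN, 1.36 from AOC11 to AOC11-LN, -3.35 between the lymph node lines and only -0.13 between the primary tumor lines. Ubd did not reach 1 FPKM in any line, with 0.559 FPKM in AOC11-LN as its highest value.

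The class I chains that receive the peptides split into groups. H2-K1 had 424 and 385 FPKM in AOC3 and AOC3-LN, and 393 and 449 FPKM in AOC11 and AOC11-LN, and H2-D1 lay between 163 FPKM in AOC11 and 198 in AOC3. H2-Q4 and H2-T23 were lower in the AOC3 lines, with log2 differences of -2.37 and -1.56. These were 2 of the 5 class I genes read, against 6.00% of all genes. B2m was lowest in AOC3-LN with 272 FPKM and highest in AOC11-LN with 851 FPKM. From AOC3 to AOC3-LN, H2-Q4 with -1.61 and H2-T23 with -1.04 passed 1 log2 unit, against 3.42% of all genes. Between the primary tumor lines only H2-Q4 passed, with -1.09, against 5.69% of all genes, so a single gene says little. Between the lymph node lines 3 of the 5 passed, against 8.69% of all genes. They were H2-Q4 with -3.65, H2-T23 with -2.12 and B2m with -1.57.

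The comparison of the AOC3 with the AOC11 lines asked how the lines of a mouse differ from those of the other. Most of the 10 genes were lower in the AOC3 lines: 8 of 10 had a log2 difference below -1, against 6.00% of all genes that passed 1 FPKM, and none was above 1. Because the genes were chosen with earlier results of these data known, this count is a description and not a test. The differences are on the scale of log2(FPKM + 1) after quantile normalization, which understates the change of genes with low values. The largest were those of Psmb8 with -3.21, Tap2 with -2.32, Psmb9 with -2.26 and Tap1 with -2.1. Tapbp had a difference of -1.75, Erap1 of -1.57, Psme2 of -1.43 and Psme1 of -1.24. Psmb10 was just short of the threshold with -0.96. The median of the 10 genes was -1.66, beside 0.01 for all genes. In FPKM, the mean of the AOC11 lines was 19.9 times that of the AOC3 lines for Tap1, 17.8 times for Psmb8, 12.9 times for Psmb9 and 12.4 times for Tap2, but 2.05 times for Psme1 and 2.07 times for Psmb10. Leaving out 1 line, an alternative chosen after seeing the data, gave from 9.17 to 328 times for Psmb8, from 6.59 to 51.2 times for Psmb9, from 6.86 to 65.7 times for Tap2 and from 12.1 to 28 times for Tap1. It gave from 1.31 to 4.74 times for Psme1 and from 1.63 to 2.63 times for Psmb10, so most of these sizes depended on single libraries. For 9 of the 10 genes the lines of the mice did not overlap, with the AOC3 lines lower, and this was so for 30.5% of all genes that passed 1 FPKM.

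None of the 10 genes passed limma with Benjamini-Hochberg adjustment at 0.05, a fit that called 0.205% of all genes in either direction. In this fit the lines of a mouse took the place of replicates, so it speaks of these cultures alone, with 1 mouse on each side. The smallest adjusted p from limma was 0.106 for Tap1, with a difference of -2.1 and a standard error of 0.37. The largest was 0.348 for Psme1, with a difference of -1.24 and a standard error of 0.61. Psmb8 had a difference of -3.21, a standard error of 0.65 and a limma adjusted p of 0.126. Psmb9, Tap1 and Tap2 entered this fit only through the AOC11 lines, where they were higher, and Nlrc5 did not enter it. An unadjusted limma p below 0.05 for 7 genes, these 3 among them, beside 18.7% of all genes, is therefore given as a description and not as support. In limma without a filter on low values, which took in all 10 genes, 5 had an unadjusted p below 0.05, beside 13.1% of all genes, and the smallest adjusted p was 0.268. When limma was restricted to protein-coding genes, Tap1 passed with an adjusted p of 0.0477, and Tap2 had 0.0506 and Psmb8 0.0578. The same limit held for Tap1 and Tap2, and this fit called 2.25% of the 11380 protein-coding genes tested. Without AOC3-LN, 5 of the 10 genes stayed below -1 and the median was -0.91. Psme1 then had a difference of -0.33, Psme2 of -0.66 and Erap1 of -0.58, so their place past the threshold rested on the AOC3-LN library.

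Lines of the same site were also compared. These comparisons share libraries with the one above and with those between the sites of a mouse, so their values are set side by side and are not independent. Between the primary tumor lines, AOC3 was more than 1 log2 unit below AOC11 for 4 of 10 genes, against 5.69% of all genes. These were Psmb8 with -1.85, Tap1 with -1.62, Tap2 with -1.54 and Psmb9 with -1.29. Tapbp followed with -0.96, and Psme1 with -0.16 and Psmb10 with -0.36 were nearly level. Between the lymph node lines, AOC3-LN was more than 1 log2 unit below AOC11-LN for 9 of 10 genes, against 8.69% of all genes. These differences ran from -1.56 for Psmb10 to -4.58 for Psmb8, and Nlrc5 had a difference of 0.08. The median of the 10 genes was -0.8 between the primary tumor lines and -2.52 between the lymph node lines, beside -0.02 and 0.03 for all genes.

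The comparison of each lymph node line with the primary tumor line of its mouse asked what sets the metastasis-derived culture apart. In mouse 3, 5 of 10 genes were lower in the lymph node line by more than 1 log2 unit, against 3.42% of all genes. They were Erap1 with -1.98, Psme1 with -1.83, Psme2 with -1.53, Psmb8 with -1.37 and Tapbp with -1.18. Tap2 with -0.79 and Psmb9 with -0.69 did not pass, but both started from under 1 FPKM in AOC3, where the pseudocount limits the difference. With a pseudocount of 0.1 FPKM they were -2.24 and -1.93, and Psmb8 was -3.52. Psmb10 with -0.57 did not pass either, nor did Tap1 with -0.11, or -0.41 with the smaller pseudocount, and Nlrc5 with 0.13 was slightly higher in AOC3-LN. The median of the 10 genes was -0.99, beside 0.02 for all genes.

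In mouse 11, most of the genes were level or higher in the lymph node line. Psmb8 with 1.36 and Psmb9 with 1.25 were above 1, so 2 of 10 genes passed, against 4.97% of all genes. Tap1 with 0.85, Tap2 with 0.78 and Psmb10 with 0.64 came next, and Psme2 with 0.06 and Erap1 with -0.12 were level. The median of the 10 genes was 0.52, beside -0.02 for all genes. With a pseudocount of 0.1 FPKM, 4 genes passed, since Tap1 had 1.03 and Nlrc5 lay just above 1, the latter on few fragments.

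The difference of the lymph node shift between the mice, mouse 11 minus mouse 3, was 2.73 for Psmb8, 2.16 for Psme1, 1.94 for Psmb9 and 1.85 for Erap1. It was 1.59 for Psme2, 1.58 for Tapbp, 1.57 for Tap2, 1.2 for Psmb10, 0.96 for Tap1 and 0.05 for Nlrc5. Every gene thus had the higher shift in mouse 11, though for Nlrc5 the difference was near 0. With 1 library per line, these differences have no replicate check.

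Taking all lines, 8 of the 10 genes followed the order AOC3-LN, AOC3, AOC11 and AOC11-LN from low to high, and 10.3% of all genes that passed 1 FPKM did so. Erap1 and Nlrc5 were the exceptions. For 9 genes AOC3-LN was the lowest line, which was so for 30.4% of all genes. No spread is known for a line, so it cannot be said which neighbors in this order differ.

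In the mm10 genome, 4 of the genes lie side by side within the class II region of the MHC, in 34335 bases at chr17:34181987-34216321. Psmb9 (ENSMUSG00000096727.3) lies on the minus strand at chr17:34181987-34187764. Tap1 (ENSMUSG00000037321.17) lies on the plus strand at chr17:34187553-34197225, and these annotated genes overlap by 212 bases. Psmb8 (ENSMUSG00000024338.15) follows on the plus strand at chr17:34197721-34201454, and 495 bases separate it from Tap1. Tap2 (ENSMUSG00000024339.12) ends the row on the plus strand at chr17:34203527-34216321, with 2072 bases between it and Psmb8. With all lines included, these 4 genes had the 4 largest differences between the AOC3 and the AOC11 lines among the 10. Without AOC3 this did not hold, since Tap1 had -2.15. Erap1 then had -2.58, Tapbp -2.35, Psme2 -2.2 and Psme1 -2.16. Tapbp (ENSMUSG00000024308.15) lies on the same chromosome at chr17:33915899-33929292, which is 252694 bases before Psmb9.

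The other genes are spread over chromosomes 8, 13 and 14. Psme1 (ENSMUSG00000022216.17) lies on the plus strand at chr14:55578123-55581529. Psme2 (ENSMUSG00000079197.10) lies on the minus strand at chr14:55587441-55591113, and 5911 bases separate this pair. Their values per line are close to each other, as given above. Psmb10 (ENSMUSG00000031897.9) lies on the minus strand at chr8:105935735-105938444. Nlrc5 (ENSMUSG00000074151.13) lies on the plus strand of the same chromosome at chr8:94434356-94527272. Erap1 (ENSMUSG00000021583.7) lies on the plus strand at chr13:74639568-74693201. Its annotated end overlaps Cast, a gene of the minus strand with 76.5 to 108 FPKM, and Psme1 overlaps Emc9 of the minus strand. Psmb9 and Tap1, on opposite strands, overlap each other as given above. Tapbp overlaps Zbtb22, and both of these lie on the plus strand. The library kit kept the strand, but Cufflinks was run with its default settings, so fragments from shared bases may have been assigned to either gene. For Tapbp and Zbtb22 the strand could not separate such fragments under any setting.

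Genes next to the 10 did not in general follow them. Within 50 kb of a gene of the set lay 38 other protein-coding genes, of which 25 reached 1 FPKM in at least 1 line. Of these 25, 2 were lower and 1 was higher in the AOC3 lines by more than 1 log2 unit, against 6.00% and 5.1% of all genes, and their median was 0.0. These shares are near those of all genes. The lower ones were H2-DMb1 with -1.16, which lies beside the chromosome 17 cluster and had 0.0561, 0, 0.896 and 1.85 FPKM in AOC3, AOC3-LN, AOC11 and AOC11-LN, and Irf9 with -1.13, which lies near Psme2. The higher one was B3galt4 near Tapbp, with 3.31 FPKM in AOC3 and 3.32 in AOC3-LN, against 0.72 in AOC11 and 0.498 in AOC11-LN. From AOC3 to AOC3-LN none of the 25 passed in either direction. From AOC11 to AOC11-LN only Pck2 near Psme1 did, with a difference of 1.38, against 4.97% of all genes that were higher. Between the primary tumor lines only B3galt4 passed, with 1.16, against 6.25% of all genes that were higher in AOC3. Between the lymph node lines H2-DMb1 with -1.34, Irf9 with -1.59 and Cpne2 near Nlrc5 with -1.1 were lower and B3galt4 with 1.75 was higher in AOC3-LN. So 3 of the 25 were lower and 1 was higher, against 8.69% and 7.58% of all genes.

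**Figure D3:**
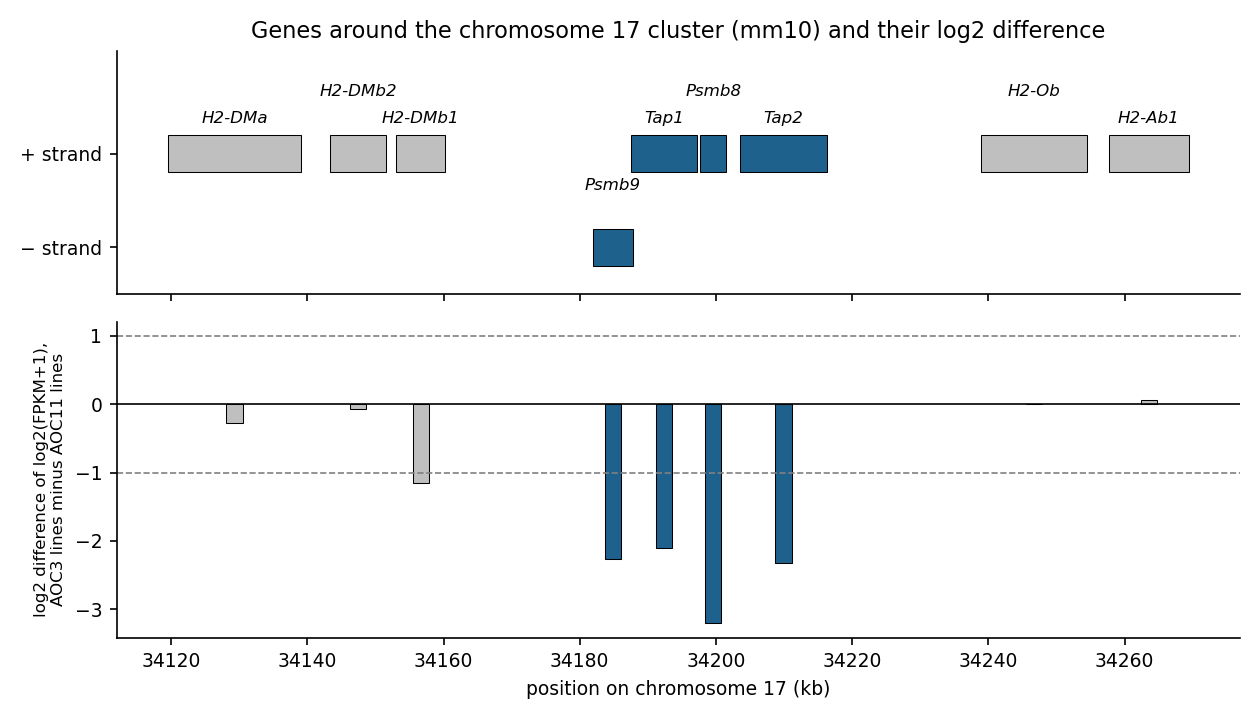
Annotated genes around the chromosome 17 cluster in mm10 (upper panel, to scale, by strand) and the log2 difference of AOC3 lines minus AOC11 lines for each gene at its midpoint (lower panel, vertical axis in log2 units, horizontal axis position in kb, dashed lines at 1 and -1). Bars in blue are Psmb9, Tap1, Psmb8 and Tap2, between -2.1 and -3.21, and bars in gray are the protein-coding neighbors, of which H2-DMb1 with -1.16 passes the threshold.

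Promoter sequences from RefSeq on GRCm38.p6, 250 bases before to 50 bases after a transcript's start, were found for 8 of the 10 genes, and those of Tap2 and Nlrc5 were not used here. Psmb9 and Tap1 start on opposite strands from a shared promoter, and it is shown because both genes were lower in the AOC3 lines. The first bases of their RefSeq transcripts are 34187330 for Psmb9 and 34187556 for Tap1, and the 225 bases between them are in capitals. The sequence of chr17:34187330-34187556 is given on the plus strand, read toward Tap1:
Tap1 and Psmb9: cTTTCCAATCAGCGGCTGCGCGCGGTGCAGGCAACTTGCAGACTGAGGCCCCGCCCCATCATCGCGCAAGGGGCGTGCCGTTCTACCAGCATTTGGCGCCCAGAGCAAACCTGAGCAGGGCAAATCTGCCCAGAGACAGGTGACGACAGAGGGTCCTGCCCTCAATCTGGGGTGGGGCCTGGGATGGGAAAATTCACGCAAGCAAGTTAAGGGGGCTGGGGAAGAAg

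The windows were searched on both strands for a pair of interferon-linked motifs. The core of the interferon-stimulated response element was read as GAAA, any 2 bases, then GAAA, and it was found in the windows of Erap1 and Psme1, that is in 2 of 8 genes, and in 3.99% of all 27025 genes with a window. The core of the gamma-activated site, TTCNNNGAA, was found in the window of Psmb8, that is in 1 of 8 genes, and in 9.55% of all genes. Neither was found in the shared promoter of Psmb9 and Tap1, but only these exact letters were searched for. Sites that depart from them would be missed, so the absence does not show that this promoter lacks interferon-linked sites. The matches are shown with 10 bases on either side, on the plus strand of GRCm38.p6 with the match in capitals, and they lie at chr13:74639849-74639858 for Erap1, chr14:55578503-55578512 for Psme1 and chr17:34198098-34198106 for Psmb8. The first of these spans the start of the RefSeq transcript, the second lies just after it, and the third begins 97 bases before it.
Erap1: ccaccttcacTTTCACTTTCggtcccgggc
Psme1: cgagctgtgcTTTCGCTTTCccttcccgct
Psmb8: tcctccgctgTTCCCAGAAgatgcccccc
A match of letters is a description of the window and shows no binding.

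The mean profile of the 10 genes, with each gene centered on its own mean of log2 values, was -0.34 and -1.33 in AOC3 and AOC3-LN, and 0.55 and 1.12 in AOC11 and AOC11-LN. Tapbp was nearest to this mean among the 10, with a root-mean-square distance of 0.1 over the 4 lines, and Nlrc5 with 0.98 and Psmb8 with 0.83 were farthest. Of 10556 other genes with 5 FPKM or more in any line, Tcp11l1 with a distance of 0.04, Wnt9a with 0.05, Flot2 with 0.09, Lipa with 0.09 and Inhbb with 0.11 were nearest. Tcp11l1 stood at 14.5 FPKM in AOC3 and 6.24 in AOC3-LN, against 27.8 in AOC11 and 43.7 in AOC11-LN. The pattern was therefore also found outside the 10 genes, and 4 lines give little room to tell patterns apart.

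Markers of the cell types that the cultures could hold were read as a check of the labels. All 8 epithelial markers reached 1 FPKM in at least 1 line, with Krt18 as the most abundant, and their summed level was 3998 and 3962 FPKM in AOC3 and AOC3-LN, and 3237 and 3331 FPKM in AOC11 and AOC11-LN. The lines were epithelial by these markers, though Krt5 was far lower in AOC11 with 4.99 FPKM and AOC11-LN with 17 than in AOC3 with 499 and AOC3-LN with 275. Trp63 was also lower in the AOC11 lines, with 0.0848 and 0.841 FPKM against 1.69 and 2.1 in AOC3 and AOC3-LN, while Krt14 was higher there, with a log2 difference of -0.69 for the AOC3 minus the AOC11 lines. None of the 8 fibroblast markers reached 1 FPKM in any line, and their summed level was 0.246, 0.323, 0.511 and 1.17 FPKM in AOC3, AOC3-LN, AOC11 and AOC11-LN. None of the 6 T and NK cell, 4 B cell, 3 general leukocyte and 5 endothelial markers reached 1 FPKM. Cd3e, Cd4, Cd8a, Ncr1 and Gzmb were listed at 0 in all lines, and Ptprc did not exceed 0.064 FPKM.

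Of 8 macrophage and dendritic cell markers, 3 reached 1 FPKM, namely Cd68, Csf1r and Cd14, and the summed level was 21.5 FPKM in AOC3 and 18.7 in AOC3-LN, against 33.8 in AOC11 and 16.8 in AOC11-LN. Csf1r was lower in the AOC3 lines, with 0.995, 0.435, 20.8 and 6.01 FPKM, but Cd68 was higher there by 1.01 log2 units and Cd14 by 0.31, while the defining marker Adgre1 was listed at 0 in every line and Lyz2 reached 0.0266 FPKM only in AOC11-LN. Of 8 genes of class II presentation, Cd74 had 0.16, 0.119, 0.788 and 3.25 FPKM in AOC3, AOC3-LN, AOC11 and AOC11-LN, and H2-DMa and H2-DMb1 also reached 1 FPKM. The summed class II level was 3.29, 5.7, 7.34 and 10.5 FPKM, H2-Aa, H2-Ab1 and H2-Eb1 stayed below 0.1 FPKM, and Ciita did not exceed 0.0211 FPKM. The part of Csf1r and Cd74 in the differences of the 10 genes was not tested. In these bulk libraries, fewer cells that express a gene and less RNA of it per cell cannot be told apart.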

How the data were processed

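RNA from 4 cultured mouse lines was sequenced with 1 library per line. The authors trimmed reads with Trim Galore, mapped them to mm10 with TopHat2, estimated abundance with Cufflinks on GENCODE M21 and deposited FPKM values per gene. Gene names and positions came from GENCODE M21, whose coordinates matched 34670 of 34721 entries. The log2 of FPKM plus 1 was quantile-normalized across the lines with all entries included, a gene was kept if any line had 1 FPKM or more, and log2 differences above 1 or below -1 were counted. limma 3.58.1 in R 4.3.3 (lmFit, eBayes with trend, Benjamini-Hochberg) was fitted to both lines of each mouse, and the code was also run on simulated data. The simulated lines were independent of each other, which the lines of a mouse are not, so that run does not give the error rate of the fit here. Depth was estimated from low FPKM values, of which 72.8% to 73.5% lay within 0.1 of a whole multiple of a step, where evenly spread values would give 20%. Alternatives changed the pseudocount, normalization, filter, threshold, genes tested, site block and libraries. The 10 genes, the named lists, neighbors, 5 most alike genes and motifs followed a written rule, and members and lists were chosen with earlier results of these data known. Nrdc was read under its older symbol Nrd1. 1 gene of the list of interferon signaling and NLRC5 partners is not reported here, and the list was counted without it.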

Additional observations from a re-analysis of the deposited data

Results flagged for a closer look

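Psmb8 differed in opposite directions between the lymph node and the primary tumor line of the mice. On the scale of log2(FPKM + 1) it was -1.37 in mouse 3, from 1.84 FPKM in AOC3 to 0.0516 in AOC3-LN, and 1.36 in mouse 11, from 9.07 FPKM in AOC11 to 24.7 in AOC11-LN. With a pseudocount of 0.1 FPKM the values were -3.52 and 1.44, so the size in mouse 3 depended on how values near 0 were treated. With the pseudocount of 1 it was the only gene of the 10 that passed 1 log2 unit in both mice, and with 0.1 Psmb9 also did, with -1.93 and 1.44. Each line has 1 library. The difference between the mice was not tested.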

How the results depend on the processing

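No log2 difference of the 10 genes that had passed the threshold changed sign with another pseudocount or scaling or when 1 line was left out. The count of the 10 genes past the threshold between the AOC3 and the AOC11 lines was 8. It was 8 with a pseudocount of 0.1 and with median scaling, 9 without quantile normalization and 9 at a fold of 1.5, while the filter does not enter this count. It ran from 5 (without AOC3-LN) to 9 when 1 line was left out. The median of -1.66 ran from -0.91 to -2.28 when 1 line was left out. From AOC3 to AOC3-LN the count of 5 became 7 with a pseudocount of 0.1 and 7 at a fold of 1.5. From AOC11 to AOC11-LN the count of 2 became 4 with a pseudocount of 0.1 and 5 at a fold of 1.5. limma called 0 of the 10 genes, and 1 among protein-coding genes only. Over all genes, the count past the threshold was 1573 and became 2627 with a pseudocount of 0.1 and 3814 at a fold of 1.5. limma called 29 genes in all, 0 without a filter, 50 with at least 5 FPKM, 256 among protein-coding genes and 0 to 4 when 1 line was left out, where the lone line is assumed to vary like the lines of the other mouse. The block on site gave 31. The difference in the log2 ratio of Psmb9 to Psmb6 was -4.13 on FPKM, -2.30 with a pseudocount of 1, which raises the lowest values, and -2.34 with this pseudocount and quantile normalization. In alternatives chosen after seeing the data, leaving out 1 line gave -2.71 to -5.55 for this ratio, -2.99 to -8.12 for Psmb8 to Psmb5, whose main value was -5.56, and -0.5 to -1.23 for Psmb10 to Psmb7, whose main value was -0.86. The shift of the Psmb8 ratio from AOC3 to AOC3-LN, -5.12 on FPKM, was -1.40 with a pseudocount of 1 and -1.33 with quantile normalization added. Other causes were not tested. Values under 1 FPKM limit Psmb8 in AOC3-LN, Psmb9, Tap1 and Tap2 in both AOC3 lines and Nlrc5 in every line.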
